A study of Mus musculus with 12 samples.

Results

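Monolayers of mouse mammary epithelial cells were followed from 48 h to 96 h of culture on collagen-coated dishes. The comparison holds 6 of the 12 RNA sequencing libraries of the series, chosen by their titles, with 3 libraries at 48 h and 3 at 96 h. The cells came from C57BL/6 mice, and no allele or transgene is given for any group. They were detached with trypsin, replated on collagen and kept in MEBM, a mammary epithelial basal medium, with supplements, and received prolactin at 1 µg/mL and progesterone at 1 µM, at both times. The other 6 libraries are spheroids of the same cells in Matrigel, a gel of basement membrane proteins, at 48 h and 96 h in the same medium and hormones. A renewal of the medium after 48 h is described for the gels and not for the monolayers. The age of the mice, the passage of the cells and any sort for cell type are not stated in the labels, and the series speaks of biological replicates without saying whether they came from different animals. The p-values therefore measure the spread between these cultures.

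Cells on a dish divide until neighbours and space restrain them, and dividing cells carry transcripts that resting cells lack. Cyclin B with Cdk1 drives entry into mitosis, kinetochore proteins hold chromosomes to the spindle, the checkpoint proteins Bub1b and Mad2l1 delay anaphase until all are attached, and Cdc20 then activates the ubiquitin ligase that ends mitosis. Transcripts of these genes are made in late G2 under the factors B-Myb, MuvB and Foxm1, whereas genes of DNA synthesis are made earlier under E2F factors. The mammary epithelium itself has a luminal layer, which makes milk under prolactin, and a basal contractile layer, which rests on a basement membrane.

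Levels below are CPM, counts relative to the size of the library, with sizes adjusted by TMM, a scaling on the bulk of genes. Changes are log2 fold changes of 96 h against 48 h from edgeR's quasi-likelihood test, and rose, fell and changed are used for genes with a Benjamini-Hochberg adjusted p under 0.05. Values marked SE were worked back from the log2 change and the F statistic of the test, and were not estimated separately. For genes with few counts they can lie below the error of counting alone. Library totals ran from 10723387 to 12871930 counts at 48 h and from 7674105 to 11641932 counts at 96 h. In a principal component analysis of the 6 monolayers, the first component held 77.7% of the variance and separated the times. The second held 7.85% and spread the 48 h libraries, with replicate 1 at 21.4, replicate 2 at 7.48 and replicate 3 at -27.2, more than those at 96 h, which lay between -9.46 and 6.28. TMM factors differed with time, from 0.923 to 0.952 at 48 h and from 1.04 to 1.07 at 96 h, so the choice of scaling moved values for genes with small changes. The markers that define mammary epithelium were all present: all 12 of that list held counts in every monolayer library, with a summed level of 7577 to 8576 FPKM at 48 h and 3281 to 3417 FPKM at 96 h.

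Of 13951 genes tested, 4196 rose and 4360 fell from 48 h to 96 h, which is 61.3% of all genes, with 30.1% higher and 31.3% lower. The counts of list members below are to be read against these shares. Changes of over 2-fold were held by 1193 genes that rose and 1022 that fell, and changes of over 4-fold by 328 and 259. The libraries of both times did not overlap for 63.8% of the genes tested. The median log2 change over all genes was 0.012. Scaling to total counts raised that median by 0.17 and gave 5879 genes higher and 3006 lower, and the deposited log2 FPKM values raised it by 0.12 and gave 5664 higher and 3020 lower. With total-count scaling nearly all medians of the lists below rose by about 0.17. On log2 FPKM some moved further or the other way. There the mitotic spindle median went from -3.03 to -2.165 and the milk median from 0.85 to 0.14. List counts under both settings are given where they moved by over 1.5 times. Without replicate 3 of the 48 h monolayers 3965 genes rose and 4181 fell. In these bulk samples, fewer cells of a type and less RNA per cell cannot be told apart.

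Among genes with a mean level of at least 3 on the log2 CPM scale and with libraries that did not overlap between the times, the largest rise was that of Spp1, the gene of osteopontin, a secreted phosphoprotein that binds integrins. Spp1 stood at 311, 339 and 382 CPM at 48 h and 5247, 5441 and 5493 CPM at 96 h, a 15.7-fold rise with a log2 change of 3.97 ± 0.0870 (SE, adjusted p = 8.5e-16). Per length it was the 308th gene at 48 h, with 229 FPKM, and the 8th at 96 h, with 4047 FPKM. Mt3, a metallothionein that binds zinc and copper, rose from 5.59, 5.06 and 6.62 CPM to 73.5, 75.7 and 75.7 CPM. Thbd, the thrombin receptor thrombomodulin, held 10.0, 12.5 and 10.20 CPM at 48 h and 155, 112 and 70.1 CPM at 96 h. Its 96 h libraries differed from each other by more than 2-fold, yet each was far above every 48 h library. The other rises of this rank were Cd68, a glycoprotein of lysosomes and macrophages (10.16-fold), Dock10, an exchange factor for small GTPases (9.95-fold), the transcript G530011O06Rik (9.30-fold), the kinesin Kif5c (9.22-fold), Cck, the peptide hormone cholecystokinin (8.49-fold), and Abca1, the cholesterol exporter (8.07-fold). Grem1, a BMP antagonist (6.94-fold), Megf10, an engulfment receptor (6.35-fold), the interferon-inducible Ifi207 (6.32-fold), Mmd (6.10-fold), Ogdhl (6.08-fold) and Calcrl, the receptor of adrenomedullin and CGRP (5.99-fold), completed the 15. Falls of this rank were led by mitotic genes, described below, and also held Fgfbp1, a carrier that releases fibroblast growth factors from the matrix. Fgfbp1 fell from 31.6, 30.8 and 38.5 CPM to 1.92, 1.38 and 2.03 CPM, a log2 change of -4.20 ± 0.142 (SE, adjusted p = 8.33e-14). Its SE is smaller than the counting error at 96 h alone. Aoc3, a vascular amine oxidase, fell 11.6-fold, and Car2, a cytosolic carbonic anhydrase, fell 10.8-fold.

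**Figure D1:**
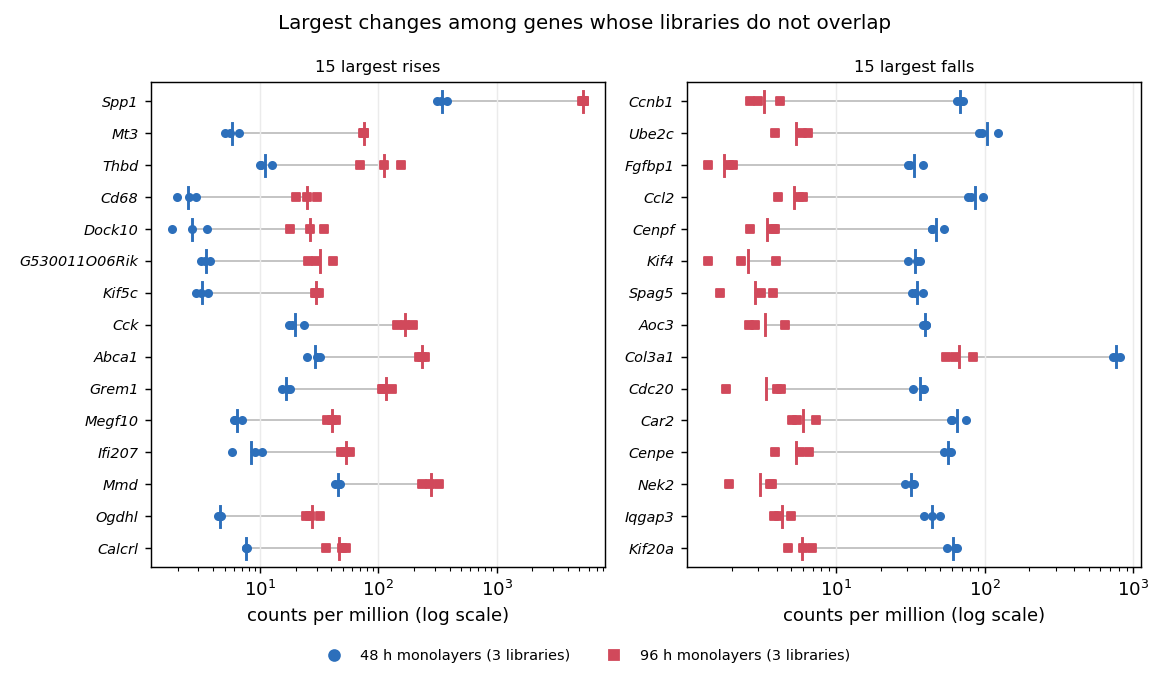
Level of the 15 genes with the largest rises (left) and the 15 with the largest falls (right), in CPM on a log axis. Each point is a library, bars are means of 3 libraries, circles are 48 h and squares 96 h; the rule asked for libraries that do not overlap, so the gap between the times is a property of the choice.

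Genes of mitosis fell together. In the mitotic spindle and cytokinesis list, 0 of 45 rose and 44 fell, against 31.3% of all genes that fell, and 40 of the 44 fell by over 2-fold. The list's median log2 change was -3.03, with members from -4.63 to 0.11, and 1 member was higher on log2 FPKM. Ccnb1, the main mitotic cyclin, stood at 65.3, 71.4 and 69.1 CPM at 48 h and 2.64, 3.01 and 4.23 CPM at 96 h. No 48 h library came near any 96 h library, and the log2 change was -4.37 ± 0.114 (SE, adjusted p = 6.53e-15). Ccnb2, the second B-type cyclin, held 34.9, 35.2 and 38.5 CPM at 48 h and 0.8001, 1.38 and 2.20 CPM at 96 h. Its log2 change was -4.63 ± 0.174 (SE, adjusted p = 2.57e-13), and its levels at 96 h rest on few counts. For both Ccnb1 and Ccnb2 the SE is smaller than the counting error at 96 h alone, so it overstates the precision. Their kinase partner Cdk1 kept more of its level: 76.6, 76.7 and 96.4 CPM at 48 h and 11.8, 15.03 and 16.3 CPM at 96 h, 5.83-fold lower. Ube2c, the conjugating enzyme that works with the anaphase-promoting complex, held 91.1, 95.3 and 123 CPM at 48 h and 3.92, 5.89 and 6.53 CPM at 96 h, 19.2-fold lower. The microtubule proteins and motors of the spindle followed. Nusap1, which bundles spindle microtubules, fell 23.6-fold, and Aspm, which focuses spindle poles, fell 20.01-fold. Kif2c, the microtubule depolymerase that corrects faulty attachments, fell from 23.2, 23.5 and 28.0 CPM to 0.720, 0.751 and 2.20 CPM. The chromokinesin Kif4 fell 12.8-fold, the astrin gene Spag5 12.5-fold, the cytokinesis motor Kif20a 10.4-fold, the scaffold Iqgap3 10.4-fold and the centrosomal kinase Nek2 10.6-fold. Mki67, the Ki-67 antigen of cycling cells, was at 163, 143 and 117 CPM at 48 h and 14.0, 15.3 and 23.9 CPM at 96 h, and Top2a, which untangles sister DNA, was at 204, 202 and 192 CPM at 48 h and 21.8, 20.5 and 31.7 CPM at 96 h. No library of one time reached into the other for either gene. Foxm1, the activator of many of these genes, fell 5.66-fold, from 35.6, 32.7 and 30.1 CPM to 5.52, 5.14 and 6.53 CPM.

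**Figure D2:**
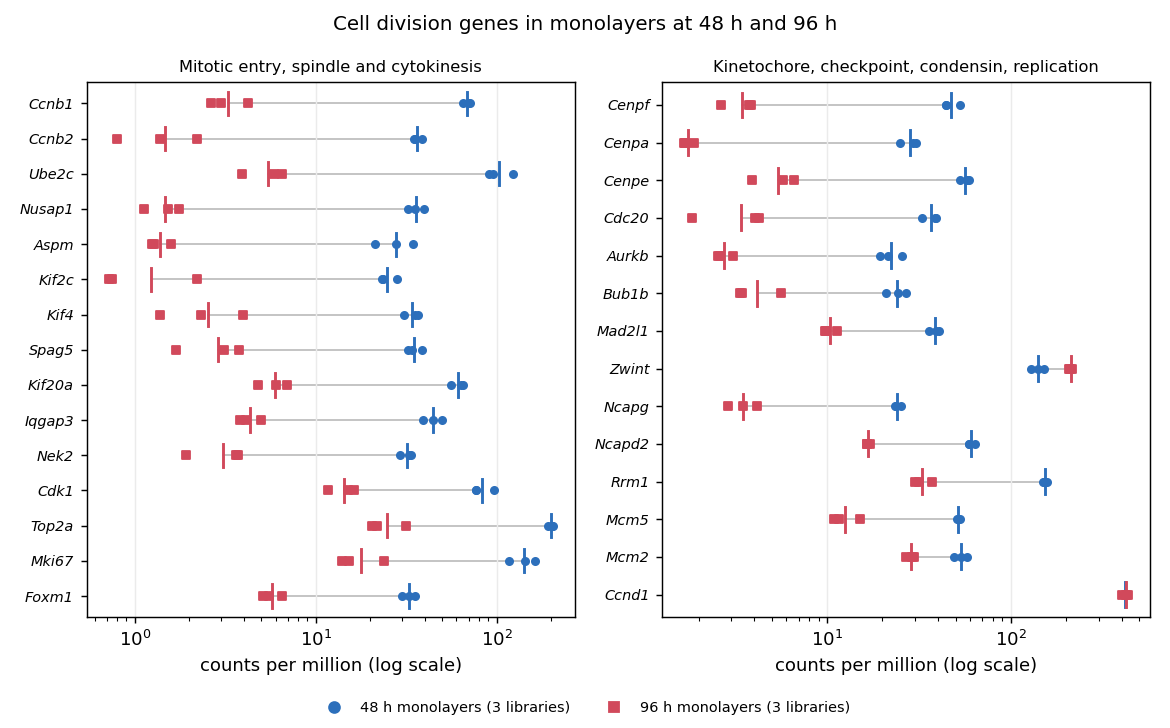
Level of 29 genes of cell division in CPM on a log axis, with mitotic genes on the left and kinetochore, checkpoint, condensin and replication genes on the right. Each point is a library, bars are means of 3 libraries, circles are 48 h and squares 96 h; all but Zwint and Ccnd1 lie lower at 96 h in every library.

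Because these genes moved as a block, their promoters are shown for the elements through which cell cycle genes are known to be read. The sequences are the 200 bases before the RefSeq start in GRCm38.p6, a later build than the mm9 of the counts, on the strand of the gene, in lower case. Capitals mark the CCAAT box (CCAAT), bound by NF-Y, and the cell cycle homology region (TTTGAA or TTCGAA), bound by MuvB, each on either strand, where they read ATTGG and TTCAAA. The genes were chosen after their values were seen, among those with 1 listed start once any window on 1 other chromosome was set aside. Ccnb1 lies at chr13:100786487-100786686, minus strand, Ccnb2 at chr9:70421555-70421754, minus strand, Ube2c at chr2:164769729-164769928, plus strand, and Cdc20 at chr4:118437344-118437543, minus strand.
Ccnb1: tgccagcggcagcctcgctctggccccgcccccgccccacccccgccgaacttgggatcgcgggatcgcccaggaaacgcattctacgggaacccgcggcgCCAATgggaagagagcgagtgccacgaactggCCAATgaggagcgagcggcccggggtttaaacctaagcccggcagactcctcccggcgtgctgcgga
Ccnb2: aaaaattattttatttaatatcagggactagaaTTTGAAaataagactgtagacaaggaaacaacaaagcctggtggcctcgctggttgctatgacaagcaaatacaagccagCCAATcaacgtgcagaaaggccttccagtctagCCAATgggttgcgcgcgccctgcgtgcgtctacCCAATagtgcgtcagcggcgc
Ube2c: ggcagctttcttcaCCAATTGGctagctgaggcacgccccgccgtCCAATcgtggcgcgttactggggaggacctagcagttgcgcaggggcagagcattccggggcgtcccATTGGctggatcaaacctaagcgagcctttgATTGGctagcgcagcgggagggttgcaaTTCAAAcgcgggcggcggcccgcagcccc
Cdc20: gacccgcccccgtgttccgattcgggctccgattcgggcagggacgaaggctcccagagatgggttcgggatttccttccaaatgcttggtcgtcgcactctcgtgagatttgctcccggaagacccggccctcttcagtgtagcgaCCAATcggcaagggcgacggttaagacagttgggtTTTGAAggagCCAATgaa
Ccnb1 has CCAAT boxes that begin 99 and 67 bases before the start and no homology region in the stretch shown. Ccnb2 has 3 CCAAT boxes, at 87, 54 and 21 bases, and a homology region at 167 bases. In Ube2c the homology region lies 29 bases before the start, behind 5 CCAAT boxes of which 2 share bases, and in Cdc20 it lies at 18 bases, between CCAAT boxes at 53 and 8 bases. Over the 250 bases before the start, a homology region was present in 46.5% of 43 windows of the mitotic spindle list, which covered 40 of its 45 genes, and in 17.1% of all 32851 windows. The CCAAT box was present in 69.8% of the list's windows and in 33.8% of all. Among windows of the genes tested here the shares were 12.2% and 35.0%. They were 17.0% and 40.8% for genes that fell over 2-fold, and 27.7% and 57.4% for the kinetochore and checkpoint list. In the cholesterol synthesis list the CCAAT box was more frequent, at 78.9% of windows, and the homology region was in 10.5%. A match of letters is no evidence of a site in use.

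Genes of the kinetochore and the spindle checkpoint, which the title of the series points to, fell as a group. Of 49 tested members 1 rose and 44 fell, with a median log2 change of -1.89 and members from -4.03 to 0.59, and 2 rose with total-count scaling or on log2 FPKM. Cenpf, of the fibrous corona, was at 53.04, 44.3 and 44.5 CPM at 48 h and 2.64, 3.76 and 3.88 CPM at 96 h, a 14.0-fold fall. Cenpe, the kinetochore motor, fell 10.7-fold, and Cenpa, the centromeric histone, fell from 25.002, 30.5 and 29.5 CPM to 1.68, 1.88 and 1.68 CPM. Cdc20 was at 39.0, 32.9 and 38.7 CPM at 48 h and 1.84, 4.26 and 4.06 CPM at 96 h, with a log2 change of -3.50 ± 0.158 (SE, adjusted p = 2.69e-12). Among checkpoint kinases and their partners, Aurkb, the kinase that destabilizes wrong attachments, fell 7.95-fold. Bub1b, the BubR1 checkpoint kinase, was at 26.8, 24.2 and 21.0 CPM at 48 h and 3.44, 3.38 and 5.64 CPM at 96 h, with a log2 change of -2.51 ± 0.147 (SE, adjusted p = 8.67e-11). Mad2l1, the Mad2 subunit of the checkpoint complex, held 35.7, 39.1 and 40.5 CPM at 48 h and 9.76, 9.89 and 11.3 CPM at 96 h, with a log2 change of -1.89 ± 0.0878 (SE, adjusted p = 3.65e-12). For both checkpoint genes, all 48 h libraries lay above all 96 h libraries. The member that rose was Zwint, a kinetochore scaffold also active in neurons, from 129, 141 and 152 CPM to 210.2, 208 and 215 CPM, 1.504-fold.

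The complexes that hold and compact sister chromatids went in both directions. In the cohesin and condensin list 4 of 23 rose and 14 fell, and the median log2 change was -0.31. With total-count scaling 7 rose and 11 fell and the median was -0.14, and on log2 FPKM 7 rose and 11 fell, with -0.20. Ncapg, of condensin I, was at 25.3, 23.5 and 23.6 CPM at 48 h and 2.88, 3.51 and 4.15 CPM at 96 h, 6.88-fold lower, and Ncapd2, another condensin I subunit, fell 3.63-fold. Esco1, an acetyltransferase of cohesin, rose from 33.3, 35.4 and 35.7 CPM to 58.8, 56.4 and 56.4 CPM. Nipbl, the cohesin loader, rose 1.41-fold.

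DNA replication genes fell too. Of 52 tested members 0 rose and 45 fell, 28 of them by over 2-fold, with a median log2 change of -1.07. With total-count scaling 2 rose and 43 fell, and on log2 FPKM 3 rose and 42 fell. Rrm1, the large subunit of ribonucleotide reductase, was at 150.1, 152 and 156 CPM at 48 h and 31.7, 30.1 and 37.1 CPM at 96 h, a 4.62-fold fall with little spread at either time. Mcm5, of the replicative helicase, fell from 50.9, 51.4 and 52.9 CPM to 11.6, 10.9 and 15.2 CPM, 4.08-fold. Mcm2, of the same helicase, fell 1.87-fold. In the homologous recombination and Fanconi repair list 2 of 30 rose and 22 fell, with a median of -1.07. With total-count scaling 4 rose and 20 fell, and on log2 FPKM 4 rose and 19 fell. Their median on log2 FPKM was -0.49. Bard1, the partner of Brca1, fell 2.60-fold, from 20.8, 16.2 and 16.6 CPM to 7.44, 6.14 and 6.70 CPM. The rises in that list were those of Atr (0.24, adjusted p = 0.0448) and Rad50 (0.21, adjusted p = 0.0373), neither of which held under every alternative, and without replicate 3 of the 48 h monolayers none of its members rose and 24 fell. Lmnb1, lamin B1 of the nuclear envelope, fell from 83.7, 80.1 and 87.5 CPM to 34.6, 35.4 and 36.3 CPM.

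The promoters of Rrm1 (chr7:102441495-102441694, plus strand) and Mcm6 (chr1:128359706-128359905, minus strand) show the E2F letters in capitals, searched on both strands as TTGGCGC or TTCCCGC or TTCGCGC or TTGCCGC. Mcm6, of the same helicase as Mcm5 and chosen after its values were seen, went from 92.4 to 36.1 CPM, a log2 change of -1.35.
Rrm1: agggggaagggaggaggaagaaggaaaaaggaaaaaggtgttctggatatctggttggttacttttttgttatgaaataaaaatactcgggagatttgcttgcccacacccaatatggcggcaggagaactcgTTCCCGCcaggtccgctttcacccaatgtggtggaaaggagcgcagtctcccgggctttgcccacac
Mcm6: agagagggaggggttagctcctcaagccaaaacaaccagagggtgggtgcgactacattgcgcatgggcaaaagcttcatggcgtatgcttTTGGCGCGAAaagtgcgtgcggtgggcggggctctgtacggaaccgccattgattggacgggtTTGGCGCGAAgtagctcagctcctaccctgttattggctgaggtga
In Rrm1 the match begins 67 bases before the start. In Mcm6 there are matches at 109 and 46 bases, each overlapped by a match on the other strand. An E2F match was present in 42.0% of 50 windows of the replication list, which covered 41 of its 52 genes, in 7.89% of all windows and in 13.5% of those of genes tested.

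The regulators of the G1 phase went in several directions. Of 27 tested, 5 rose and 14 fell, and the median log2 change was -0.34. With total-count scaling 9 rose and 11 fell and the median was -0.16, and on log2 FPKM 8 rose and 10 fell, with -0.12. Ccnd1, the cyclin that mitogens induce, stood at 421, 417 and 415 CPM at 48 h and 401, 435 and 425 CPM at 96 h, and the times overlapped (log2 change 0.0093, adjusted p = 0.904), although the change passed at 0.18 with total-count scaling and on log2 FPKM. Ccne2, a cyclin of S phase entry, did not pass (-0.18, adjusted p = 0.411). Cdk2 fell 2.17-fold, from 29.5, 31.1 and 29.4 CPM to 13.5, 14.3 and 13.8 CPM. The pocket proteins parted: Rbl1 (p107), an E2F target, fell 2.23-fold, and Rbl2 (p130), the pocket protein of resting cells, rose 1.94-fold, from 26.3, 27.1 and 24.7 CPM to 51.0, 55.0 and 46.3 CPM. E2f1 itself rose 1.36-fold. Of the inhibitors of cyclin-dependent kinases, Cdkn2b (p15) rose from 45.4, 44.1 and 50.6 CPM to 67.2, 73.1 and 69.4 CPM. Cdkn1b (p27) fell 1.32-fold, from 78.8, 81.2 and 81.4 CPM to 63.0, 56.0 and 63.9 CPM. Cdkn2a did not pass (-0.34, adjusted p = 0.309). Cdkn1a (p21) was at 231, 242 and 249 CPM at 48 h and 261, 265 and 250.1 CPM at 96 h, a change that did not pass (log2 change 0.10, adjusted p = 0.135) and that did pass with total-count and upper-quartile scaling and on log2 FPKM, at 0.27, 0.16 and 0.27.

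Many p53 target genes rose although Trp53, the gene of p53 itself, fell 1.33-fold. In the p53 target list 17 of 29 rose and 2 fell, against 30.1% of all genes that rose, and the median log2 change was 0.43. Trp53inp1, a stress protein that promotes p53 activity, was at 121, 116 and 103 CPM at 48 h and 542, 543 and 427 CPM at 96 h, 4.45-fold higher with no overlap. Mdm2, the ligase that degrades p53, was at 186, 181 and 184 CPM at 48 h and 550.3, 502 and 409.7 CPM at 96 h, with a log2 change of 1.41 ± 0.0891 (SE, adjusted p = 2.45e-10). Gdf15, a stress-induced hormone of the TGF-beta family, rose 3.41-fold. The members that fell were the kinases Plk2 (1.597-fold) and Plk3 (1.43-fold), which are also early response genes. Genes of FOXO factors and the response to scarce nutrients rose as well: 13 of 19 rose and 1 fell, with a median of 0.74 (0.69 without a member at or under 3 counts at both times), and with total-count scaling or on log2 FPKM none fell. Angptl4, an inhibitor of lipoprotein lipase, was at 34.4, 37.9 and 39.4 CPM at 48 h and 186, 153 and 142 CPM at 96 h, 4.31-fold higher. Cpt1a, which admits fatty acids to mitochondria, rose from 34.4, 31.1 and 28.2 CPM to 107, 100.6 and 95.7 CPM, and Txnip, which restrains glucose uptake, rose 2.20-fold. Pdk4, the kinase that shuts pyruvate dehydrogenase, rose 2.60-fold.

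Focal adhesion and actomyosin genes, which link the cell's contractile fibres to its matrix, fell almost without exception. Of 42 tested members 1 rose and 41 fell, 15 by over 2-fold, with a median log2 change of -0.86. Tagln, the actin-binding transgelin, was at 631, 714 and 779 CPM at 48 h and 52.4, 68.6 and 115 CPM at 96 h, 8.99-fold lower. Acta2, smooth muscle actin of stress fibres and myoepithelium, was at 1127, 1167 and 1326 CPM at 48 h and 121, 147 and 190.1 CPM at 96 h, with a log2 change of -2.98 ± 0.123 (SE, adjusted p = 8.95e-13). All 48 h libraries exceeded all 96 h libraries by several-fold for both genes. The member that rose was Limk1, a kinase that stabilizes actin (0.23, adjusted p = 0.0377), a call that did not hold under every alternative, and without replicate 3 of the 48 h monolayers none rose. The summed level of the list was 17769 to 19488 FPKM at 48 h and 9461 to 10275 FPKM at 96 h.

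YAP and TAZ are coactivators that enter the nucleus in spread cells under tension, and of their targets 3 of 23 rose and 16 fell, with a median of -0.55. Ccn1, a matricellular protein and standard target, was at 1971, 1936 and 2216 CPM at 48 h and 607, 639 and 596 CPM at 96 h, 3.33-fold lower. Ccn2, connective tissue growth factor, was at 3260.3, 3398 and 3809.6 CPM at 48 h and 1255, 1429 and 1698 CPM at 96 h, with a log2 change of -1.26 ± 0.0941 (SE, adjusted p = 2.44e-09). Ankrd1, a nuclear ankyrin protein, fell 2.93-fold, and Edn1, endothelin 1, fell from 198, 188 and 198 CPM to 46.2, 43.5 and 48.8 CPM. The 3 rises included those of Nt5e, the ectonucleotidase CD73 (1.80-fold), and Asap1, an Arf GTPase-activating protein (1.47-fold).

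Integrins, the receptors for matrix, were divided: 10 of 21 rose and 6 fell, with a median of 0.32. Itgb1, the beta chain shared by collagen and laminin receptors, was at 2856, 3072 and 3034 CPM at 48 h and 1983, 2397 and 2361 CPM at 96 h, 1.33-fold lower. Itgb6, the chain of the epithelial receptor that activates latent TGF-beta, fell from 226, 215 and 207 CPM to 52.97, 55.6 and 49.2 CPM, 4.12-fold. Itgb4, of hemidesmosomes, fell 1.67-fold, while its partner Itga6 rose 1.25-fold. Itgb3, the chain of the vitronectin and osteopontin receptor, was at 122, 116 and 109 CPM at 48 h and 277, 273 and 257 CPM at 96 h, with a log2 change of 1.22 ± 0.0625 (SE, adjusted p = 1.29e-11). Itga8, another chain of an osteopontin receptor, rose 1.95-fold.

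Collagens and the enzymes that build them were lower at 96 h. Of 20 collagen chain genes 2 rose and 17 fell, 13 of them by over 2-fold, with a median log2 change of -1.64. Col1a1, of the fibrillar collagen I, was at 4152, 3776 and 4158 CPM at 48 h and 385, 472 and 708 CPM at 96 h, 7.72-fold lower. Col3a1, of collagen III, was at 768, 726 and 810.5 CPM at 48 h and 55.1, 62.9 and 83.5 CPM at 96 h, with a log2 change of -3.51 ± 0.117 (SE, adjusted p = 7.89e-14). The chains that rose were Col18a1, the source of endostatin in basement membranes (1.57-fold), and Col23a1, a transmembrane collagen named after its values were seen (log2 change 2.29, adjusted p = 8.42e-05). Of the 22 enzymes that process and crosslink collagen 0 rose and 20 fell, with a median of -0.79. P4ha3, a prolyl hydroxylase subunit, fell 3.86-fold, and Pcolce2, an enhancer of procollagen cleavage, fell 3.18-fold. Basement membrane genes fell as well: 2 of 27 rose and 20 fell, with a median of -0.57. With total-count scaling 4 rose and 16 fell, and on log2 FPKM 3 rose and 14 fell. The median on log2 FPKM was -0.26. Without replicate 3 of the 48 h monolayers 1 rose and 21 fell. Lama2, a laminin chain, fell from 194, 166 and 131 CPM to 64.0, 71.4 and 76.8 CPM, Lama1 fell 2.19-fold, and Dag1, dystroglycan, a laminin receptor, rose 1.31-fold.

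Fibronectin and the matricellular and elastic fibre genes ranged from -3.20 to 3.97 in log2 change: 8 of 31 rose and 19 fell, with a median of -1.01. Fn1, fibronectin, was at 17027, 15005 and 9995 CPM at 48 h and 15611, 18075 and 18875 CPM at 96 h. The 48 h libraries spread widely and overlapped those at 96 h, and the log2 change of 0.32 ± 0.131 (SE, adjusted p = 0.0405) became 0.13 (adjusted p = 0.185) without replicate 3 of the 48 h monolayers. Fbn1, fibrillin 1, was at 1224, 1055 and 819 CPM at 48 h and 193, 269 and 369.7 CPM at 96 h, 3.73-fold lower. Mfap5, of microfibrils, fell 5.35-fold. Spp1 belongs to this list and led it, and Dcn, decorin, a small proteoglycan on collagen fibrils, rose from 98.4, 111 and 112 CPM to 351, 304 and 268 CPM. Of matrix proteases and their inhibitors 7 of 28 rose and 18 fell, with a median of -0.27, or -0.099 with total-count scaling, where 8 rose and 13 fell. Mmp9, a gelatinase, fell from 335, 317 and 338 CPM to 60.2, 74.6 and 82.8 CPM, and Timp3, an inhibitor held in the matrix, fell 3.57-fold. Mmp13, a collagenase, was at 9.41, 10.9 and 12.1 CPM at 48 h and 66.8, 46.0 and 43.1 CPM at 96 h, 4.83-fold higher, and Mmp19, a metalloprotease, rose 4.22-fold.

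**Figure D3:**
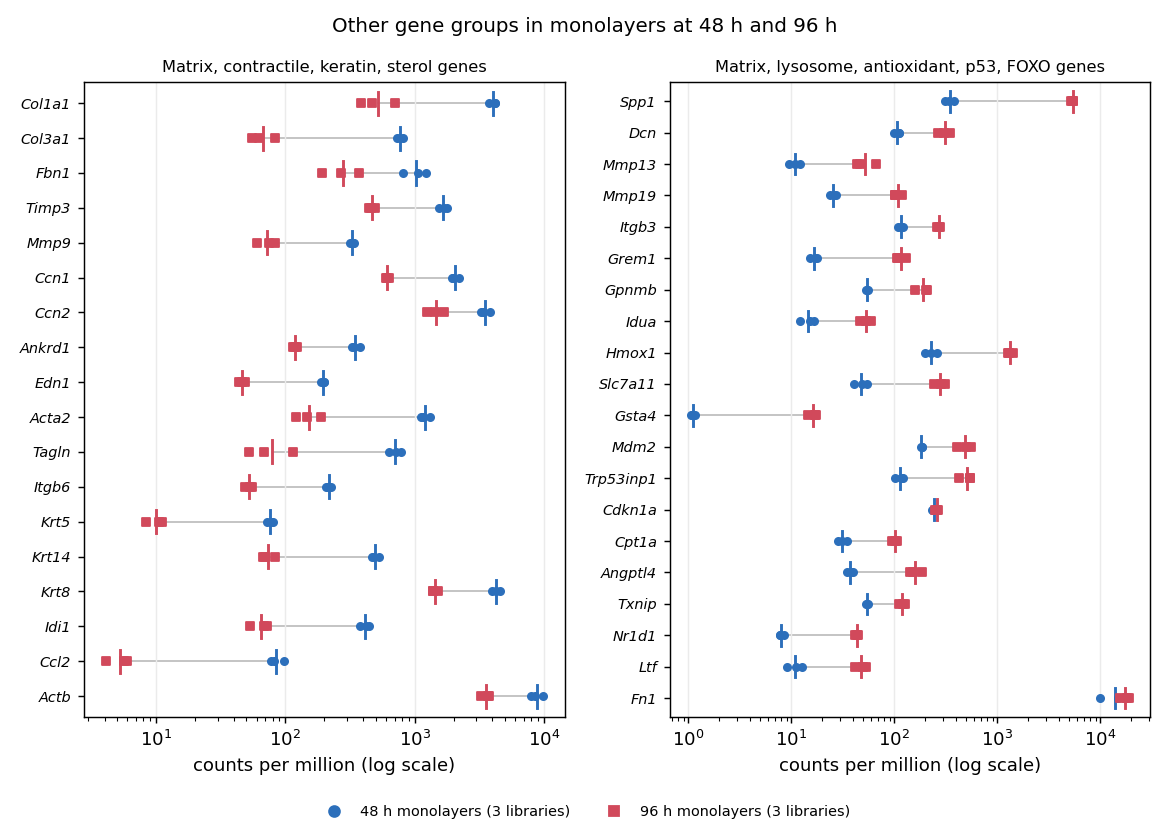
Level of 38 genes of other groups in CPM on a log axis, with matrix, contractile, keratin and sterol genes on the left and matrix, lysosome, antioxidant, p53 and FOXO genes on the right. Each point is a library, bars are means of 3 libraries, circles are 48 h and squares 96 h; the 18 genes on the left lie lower at 96 h in every library, and Fn1 at the foot of the right panel has overlapping libraries.

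Keratins and junction genes that mark epithelium were lower at 96 h. Of the 12 defining markers 11 fell and 1 rose, with a median log2 change of -1.19. Krt8, a luminal keratin, was at 3946, 4257 and 4543 CPM at 48 h and 1391, 1519.5 and 1388 CPM at 96 h, 2.97-fold lower. Krt7, another simple keratin, fell 4.15-fold. The basal keratins also fell: Krt5 was at 72.1, 79.6 and 77.9 CPM at 48 h and 10.6, 8.39 and 11.1 CPM at 96 h, and Krt14 was at 465, 483 and 534 CPM at 48 h and 70.2, 67.1 and 83.5 CPM at 96 h, with log2 changes of -2.91 ± 0.0911 (SE, adjusted p = 3.5e-14) and -2.74 ± 0.0845 (SE, adjusted p = 3.48e-14). Trp63, the transcription factor of basal cells, fell 1.90-fold. Epcam, an adhesion molecule of simple epithelia, fell 1.5002-fold, and Cdh1, E-cadherin, fell from 1169, 1155 and 1092 CPM to 686, 757 and 775 CPM. The marker that rose was Elf5, the factor of alveolar progenitors, from 6.37, 5.89 and 6.26 CPM to 11.2, 10.5 and 11.6 CPM.

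Of epithelial junction and polarity genes 2 of 45 rose and 32 fell, with a median of -0.53. With total-count scaling 4 rose and 27 fell, and on log2 FPKM 3 rose and 27 fell. Cgn, cingulin of tight junctions, fell 2.62-fold, and Esrp2, an epithelial splicing regulator, fell 2.36-fold. The members that rose were Pard3, a polarity scaffold (1.37-fold), and Dsc2, a desmosomal cadherin (1.23-fold). Among luminal markers 2 of 23 rose and 13 fell. Aldh1a3, an enzyme of luminal progenitors, was at 464, 455 and 488 CPM at 48 h and 73.1, 87.3 and 93.7 CPM at 96 h, 5.55-fold lower. The 2 that rose were the hormone receptors of this lineage, Pgr, the progesterone receptor (1.80-fold), and Prlr, the prolactin receptor (1.70-fold). Among basal markers 6 of 22 rose and 11 fell, and the rises included those of Mme, the peptidase CD10 (1.73-fold), and Procr, the protein C receptor (1.48-fold).

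Milk and alveolar genes rose more often than they fell, but many stood low in monolayers: 10 of 27 members stayed under 1 FPKM in all 6 libraries, and 3 held no count. The summed level of the list was 2437 to 2652 FPKM at 48 h and 4515 to 5338 FPKM at 96 h. Of 23 tested 12 rose and 3 fell, with a median of 0.85, or 0.14 on log2 FPKM. Csn2, beta-casein, was at 0.882, 0.415 and 0.447 CPM at 48 h and 0.640, 0.251 and 0.706 CPM at 96 h, which is a handful of counts, and the change did not pass (-0.0095, adjusted p = 0.99). Ltf, lactoferrin, was at 11.1, 12.7 and 9.13 CPM at 48 h and 52.7, 49.5 and 41.5 CPM at 96 h, 4.36-fold higher. Xdh, xanthine oxidoreductase of the milk fat globule, rose 2.78-fold. Lpl, lipoprotein lipase, fell 1.62-fold, and Stat5b, a mediator of prolactin signalling, fell 1.24-fold, a call that ended with total-count scaling and on log2 FPKM. Of keratinization genes 4 of 19 rose and 11 fell. Sprr1a, of the cornified envelope and named after its values were seen, went from 69 counts over the 48 h libraries to 0 at 96 h, at least 21.9-fold lower when the 96 h libraries together are set at 3 counts. Among members with a mean of at least 3 on the log2 CPM scale over the monolayers, the largest falls were those of Lce1h, also of the cornified envelope (9.69-fold), and Krt6a, a stress keratin (2.09-fold). Their median log2 change was -0.94, or -0.80 with a member lost at 96 h set to its floor of 3 counts and a member at or under 3 counts at both times left out.

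Genes of the mesenchymal transition did not move as one: 7 of 19 rose and 5 fell, with a median of 0.11. These are 36.8% and 26.3%, near the shares of all genes. Vim, vimentin, fell from 1095, 1161 and 1359 CPM to 672, 751 and 730.1 CPM, and Cdh2, N-cadherin, rose from 100.8, 96.5 and 97.4 CPM to 138, 158 and 157 CPM. Of the transcription factors, Twist2 fell 2.87-fold, whereas Snai2 rose 1.65-fold and Foxc1 1.598-fold. Wnt5b fell 2.01-fold. In TGF-beta and BMP signalling 14 of 31 rose and 9 fell. Fst, follistatin, which binds activin, fell 2.31-fold. Grem1 and Id2, which answers BMP, rose 6.94-fold and 3.28-fold.

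Genes of the growth factor pathways went both ways. In the EGF receptor list 8 of 22 rose and 8 fell, near the shares of all genes, with 5 lower on log2 FPKM, and its median of -0.064 turned to 0.11 with total-count scaling and 0.16 on log2 FPKM. Hbegf, heparin-binding EGF, fell 1.89-fold and Nrg1, neuregulin 1, 1.65-fold, whereas Btc, betacellulin, rose from 5.88, 5.72 and 6.35 CPM to 15.8, 21.7 and 15.7 CPM. Spry2, a feedback inhibitor of ERK signalling, rose 2.62-fold. In the immediate early list 5 of 23 rose and 12 fell. Fosb of AP-1 fell 2.75-fold and Klf10, a TGF-beta early gene, 1.90-fold, and Egr1 rose from 51.0, 48.6 and 51.0 CPM to 103, 93.3 and 78.8 CPM. Btg2, an antiproliferative gene of the same list, rose 1.68-fold. Myc, the growth factor-induced activator of biosynthesis, fell 1.31-fold. In the IGF axis 7 of 17 rose and 6 fell, 41.2% and 35.3% beside 30.1% and 31.3% of all genes. Igfbp5, an IGF-binding protein of the involuting gland, was at 9.02, 13.4 and 7.25 CPM at 48 h and 52.7, 48.3 and 62.8 CPM at 96 h, 5.50-fold higher. Irs2, the insulin receptor adaptor, rose 2.30-fold, Igfbp4 fell 2.78-fold, and the imprinted RNA H19 fell 2.94-fold.

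Among genes of the Notch pathway 6 of 17 rose and 3 fell, with a median of 0.07. These are 35.3% and 17.6%, beside 30.1% and 31.3% of all genes. Of the receptors Notch3 rose 2.01-fold, and of the ligands Dll1 rose 1.67-fold. Lfng, which modifies the receptors, fell 2.30-fold, and the target Hes1 fell 1.84-fold. Of Wnt pathway genes 11 of 37 rose and 14 fell, near the shares of all genes, and their median of -0.11 turned to 0.06 with total-count scaling. The ligands Wnt7a and Wnt11 fell 3.95-fold and 3.82-fold, the receptor Fzd8 rose 2.35-fold, and Nkd2, an inhibitor of the pathway, rose from 27.2, 28.9 and 25.9 CPM to 80.3, 91.2 and 92.3 CPM.

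Chemokines and other NF-kB targets fell: 2 of 36 rose and 27 fell, 18 by over 2-fold, with a median log2 change of -0.99988. With total-count scaling 8 rose and 27 fell, and on log2 FPKM 8 rose and 26 fell. Ccl2, which recruits monocytes, was at 76.9, 81.5 and 98.1 CPM at 48 h and 4.08, 5.64 and 6.00 CPM at 96 h, with a log2 change of -4.05 ± 0.135 (SE, adjusted p = 7.89e-14). Ccl7, its neighbour in the chemokine cluster, fell 6.84-fold. Il6, the cytokine, was at 5.88, 7.13 and 7.43 CPM at 48 h and 9.84, 7.89 and 8.91 CPM at 96 h and did not pass (0.39, adjusted p = 0.0843), but passed under 4 alternatives, among them total-count scaling at 0.56. The summed level of the list was nonetheless higher at 96 h, 4512 to 5409 FPKM against 3419 to 3626 FPKM, and Lcn2, lipocalin 2, an iron-trapping protein, was at 1708, 1791 and 1930.0 CPM at 48 h and 3383, 3296 and 2848 CPM at 96 h, 1.75-fold higher. Of factors secreted by senescent cells 9 of 31 rose and 16 fell, and its median of -0.22 was at 0.01 on log2 FPKM. Vegfa, the vascular growth factor, fell 1.204-fold, a call that ended with total-count scaling and on log2 FPKM.

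Interferon-stimulated genes rose: 23 of 36 rose and 4 fell, with a median of 0.54, and between 14 and 26 of them rose over the alternatives. Ifi44 was at 11.8, 11.8 and 10.1 CPM at 48 h and 25.8, 23.2 and 34.8 CPM at 96 h, 2.50-fold higher. Irf9, the DNA-binding subunit of the factor ISGF3, rose 1.84-fold. Isg15, a ubiquitin-like modifier, was at 8.24, 11.7 and 13.2 CPM at 48 h and 11.7, 11.1 and 23.2 CPM at 96 h, with overlapping libraries, and did not pass (0.48, adjusted p = 0.0731), but passed under 8 alternatives, with log2 changes from 0.46 to 0.67. Ifit2 fell 1.59-fold and Rigi, the RNA sensor, 1.41-fold. Replicate 3 of the 96 h monolayers was the highest of the 6 libraries for Ifi44, Irf9 and Isg15. In antigen presentation 6 of 16 rose and 4 fell: Tap1, the peptide transporter, rose 2.14-fold, Cd1d1, which presents lipids, 1.79-fold, and the immunoproteasome subunits Psmb8 and Psmb10 fell 2.25-fold and 2.06-fold.

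The interferon-stimulated response element (GAAANNGAA on either strand) is shown in capitals before the starts of Rsad2 (chr12:26456453-26456652, minus strand) and Bst2 (chr8:71537473-71537672, minus strand), antiviral genes chosen after their values were seen, which rose with log2 changes of 1.26 and 0.56.
Rsad2: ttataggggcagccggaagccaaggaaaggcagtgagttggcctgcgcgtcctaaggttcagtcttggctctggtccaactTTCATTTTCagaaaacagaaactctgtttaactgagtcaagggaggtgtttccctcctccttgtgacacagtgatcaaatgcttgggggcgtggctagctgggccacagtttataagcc
Bst2: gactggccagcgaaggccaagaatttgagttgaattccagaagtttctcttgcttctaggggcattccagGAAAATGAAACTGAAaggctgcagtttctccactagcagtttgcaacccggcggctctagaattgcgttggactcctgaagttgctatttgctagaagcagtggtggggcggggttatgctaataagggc
The match in Rsad2 begins 119 bases before the start and lies on the other strand. In Bst2 overlapping matches begin at 130 and 124 bases. Such a match was present in 50.0% of 28 windows of the interferon list, which covered 25 of its 36 genes, in 7.13% of all windows and in 5.95% of those of genes tested.

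Sterol synthesis fell along nearly its whole length. Of 24 tested genes of cholesterol synthesis and uptake 0 rose and 23 fell, 18 by over 2-fold, with a median log2 change of -1.45. Idi1, the isopentenyl diphosphate isomerase, was at 380.0, 419 and 445 CPM at 48 h and 53.8, 68.6 and 72.7 CPM at 96 h, with a log2 change of -2.68 ± 0.102 (SE, adjusted p = 2.9e-13). Each 48 h library lay above each 96 h library. Acat2, which condenses acetyl-CoA, fell 6.10-fold. Abca1, which exports cholesterol, moved the other way, at 32.4, 30.1 and 24.9 CPM at 48 h and 234, 221 and 249 CPM at 96 h. The sterol regulatory element, searched as TCACNCCAC on both strands, was in none of 19 promoter windows of the list, which covered 16 of its 24 genes, and in 1.05% of all windows, and those letters are one form of the element only. Of fatty acid synthesis genes 3 of 19 rose and 14 fell, with a median of -0.49. With total-count scaling 5 rose and 11 fell, and on log2 FPKM 4 rose and 11 fell. Acly, which supplies cytosolic acetyl-CoA, fell 2.24-fold, and the elongase Elovl6 fell 2.19-fold. The acyl-CoA synthetases Acsl4 and Acsl1 rose 2.41-fold and 1.94-fold.

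Lysosomal genes rose broadly, as 42 of 55 rose and 5 fell, with a median log2 change of 0.51. With total-count scaling 45 rose and 2 fell, and on log2 FPKM 45 rose and 2 fell. Their summed level was 4606 to 5135 FPKM at 48 h and 8364 to 8955 FPKM at 96 h. Gpnmb, a lysosomal and melanosomal glycoprotein, was at 55.2, 54.7 and 53.4 CPM at 48 h and 208, 205 and 159 CPM at 96 h, 3.50-fold higher. Idua, the iduronidase that degrades glycosaminoglycans, rose from 16.5, 15.3 and 12.3 CPM to 53.1, 59.4 and 46.7 CPM. Ctsc, cathepsin C, fell 1.55-fold, and Asah1, acid ceramidase, fell 1.44-fold. Of genes of the Nrf2 antioxidant response 16 of 24 rose and 3 fell, with a median of 0.45. Hmox1, heme oxygenase 1, was at 197, 228 and 258 CPM at 48 h and 1425, 1300.1 and 1264 CPM at 96 h, 5.83-fold higher with no overlap. Slc7a11, the cystine importer, was at 48.8, 54.5 and 40.3 CPM at 48 h and 308, 284 and 243 CPM at 96 h, with a log2 change of 2.54 ± 0.106 (SE, adjusted p = 1.01e-12). Gsta4, a glutathione transferase for lipid aldehydes, rose 14.6-fold from a low level, and its family shares similar sequence, so reads may have been split between members. Gsr, glutathione reductase, fell 1.85-fold, and Me1, malic enzyme, fell 1.55-fold.

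The unfolded protein and integrated stress response list was split: 9 of 32 rose and 15 fell. With total-count scaling 13 rose and 11 fell, and on log2 FPKM 13 rose and 10 fell. Ddit3, the stress factor CHOP, rose from 25.7, 28.4 and 34.1 CPM to 95.2, 73.6 and 83.1 CPM, and the serine synthesis enzymes Phgdh and Psat1, other targets of ATF4, fell 3.03-fold and 2.93-fold. Of clock genes 9 of 18 rose and 4 fell. With total-count scaling 12 rose and 2 fell, and on log2 FPKM 12 rose and 2 fell. Nr1d1, the repressor REV-ERB alpha, was at 7.84, 8.46 and 7.78 CPM at 48 h and 44.1, 43.5 and 41.8 CPM at 96 h, with a log2 change of 2.42 ± 0.0915 (SE, adjusted p = 2.68e-13). Its paralogue Nr1d2 rose 3.11-fold, and the repressors Bhlhe40 and Bhlhe41 fell 1.94-fold and 1.30-fold. The call of Bhlhe41 ended with total-count scaling, on log2 FPKM and without replicate 1 of the 96 h monolayers.

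Glycolysis and hypoxia-inducible genes went both ways. In respiratory chain and ribosome genes the falls were many and mostly small, and were fewer with total-count scaling or on log2 FPKM. Of glycolysis and hypoxia-inducible genes 12 of 34 rose and 16 fell, 35.3% and 47.1% beside 30.1% and 31.3% of all genes. Under total-count scaling 17 were higher and 11 lower, and the median was 0.16. Ndrg1 fell 2.13-fold and the hypoxia marker Car9 1.58-fold, and Ankrd37 and the histone demethylase Kdm3a, also inducible by hypoxia, rose 2.53-fold and 1.55-fold. Of respiratory chain and ATP synthase genes 1 of 74 rose and 57 fell, with a median of -0.38, and with total-count scaling 5 rose and 39 fell. On log2 FPKM 4 rose and 38 fell. Uqcrfs1, the Rieske protein of complex III, was at 61.2, 64.8 and 77.3 CPM at 48 h and 29.4, 29.2 and 31.2 CPM at 96 h, 2.26-fold lower, and Uqcr10, of the same complex, fell 2.31-fold. The member that rose, Ndufb9 of complex I (0.21, adjusted p = 0.0317), had overlapping libraries and did not keep its call under every alternative. Of 75 cytosolic ribosomal protein genes 0 rose and 70 fell, with a median of -0.46, where 51 fell with total-count scaling and 47 on log2 FPKM. Rps2 fell 2.01-fold on a row that also carries a pseudogene, and Rpl41 fell 1.93-fold. Of nucleolar ribosome biogenesis genes 0 of 39 rose and 25 fell, and with total-count scaling or on log2 FPKM 3 rose and 14 fell. Dkc1, dyskerin, fell 2.09-fold, and Rrp9, of the small nucleolar ribonucleoprotein, fell 1.63-fold. Of 17 housekeeping genes often used as controls 14 fell and 2 rose, whereas with total-count scaling or on log2 FPKM 3 rose and 9 fell. Actb, beta-actin, fell from 8007, 8486 and 9811 CPM to 3236, 3732 and 3717 CPM under each scaling tried, and Ppia, cyclophilin A, fell 2.12-fold, while B2m rose 1.34-fold and Gusb 1.202-fold.

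**Figure D4:**
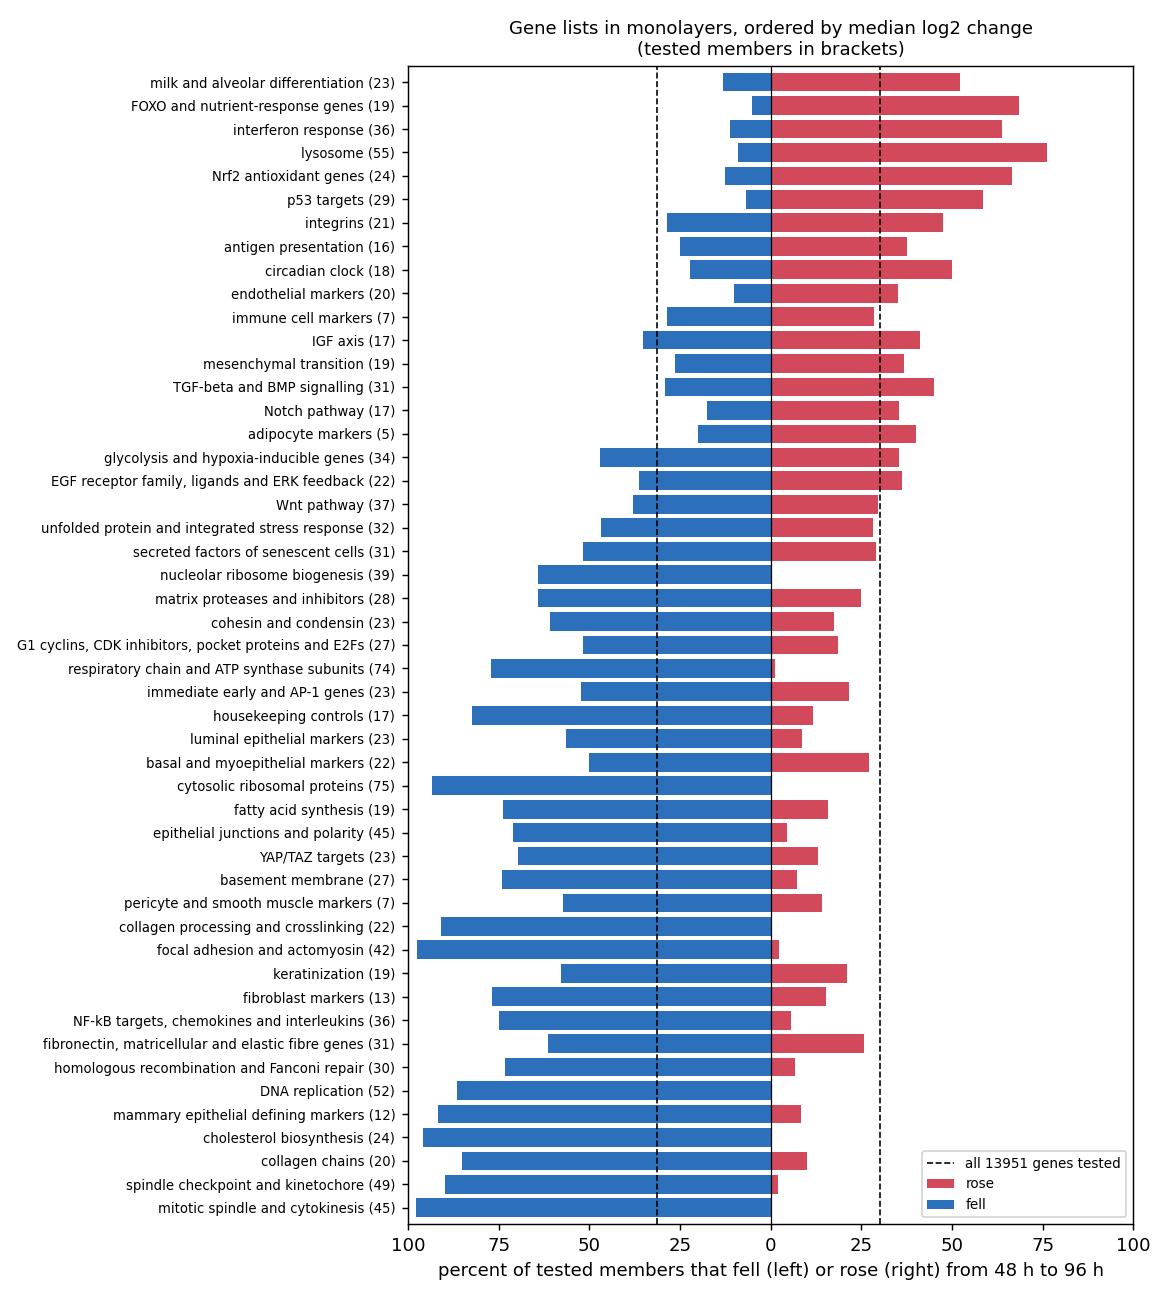
Percent of the tested members of each of 49 gene lists that rose (right) or fell (left) from 48 h to 96 h, ordered by median log2 change. Dashed lines give the shares over all 13951 genes, 30.1% and 31.3%; mitotic, kinetochore, collagen and cholesterol lists lie at the foot and lysosome, Nrf2, interferon and FOXO lists near the top.

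Markers of other cell types were present at differing levels, and their part in these results was not tested. Of 15 fibroblast markers 13 were tested, of which 2 rose and 10 fell, and their summed level was 338 to 370 FPKM at 48 h and 274 to 308 FPKM at 96 h. Pdgfra, a growth factor receptor of fibroblasts, was at 52.7, 42.8 and 46.2 CPM at 48 h and 153, 138 and 119 CPM at 96 h, 2.90-fold higher. Thy1 fell 3.12-fold and Cxcl12 3.15-fold, and Tcf21 and Clec3b held at most 1 count in a library. Dcn and Mfap5, named above, belong to this list as well. Dcn rose from a mean of 54.7 FPKM at 48 h to 177 FPKM at 96 h. Mfap5 fell from a mean of 173 FPKM to 36.3 FPKM. Most of the tested fibroblast markers thus fell, with a median log2 change of -0.96, as did most collagen chains, while Pdgfra and Dcn rose. Of 9 pericyte and smooth muscle markers 7 were tested, 1 rose and 4 fell, with a sum of 117 to 132 FPKM at 48 h and 80.1 to 93.5 FPKM at 96 h. Pdgfrb fell 1.59-fold, Mcam 1.52-fold, Cspg4 2.27-fold and Myh11 3.51-fold, whereas Notch3, also named with its pathway, rose 2.01-fold. Acta2 and Tagln, which fell as described above, are not members of this list. Of 20 endothelial markers 7 rose and 2 fell, with a sum of 37.6 to 44.8 FPKM at 48 h and 52.1 to 54.9 FPKM at 96 h. Cdh5, VE-cadherin, rose from 19.9, 16.3 and 13.9 CPM to 28.8, 27.2 and 30.2 CPM, Flt4 rose 1.84-fold, Eng fell 1.85-fold, and Emcn did not pass (0.42, adjusted p = 0.0909), but did under 4 alternatives.

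Defining immune markers were close to absent. Of 21 immune markers 7 were tested, 2 rose and 2 fell, and the sum of all 21 was 48.0 to 52.4 FPKM at 48 h and 79.1 to 96.3 FPKM at 96 h. Cd52 and Nkg7 held no count in any monolayer library, and Ptprc, the common leukocyte antigen, held at most 3. Cd68 rose from 1.96, 2.49 and 2.86 CPM to 30.0, 24.7 and 20.1 CPM, Lyz2 rose 1.595-fold, Itgam fell 1.91-fold with overlapping libraries, and Cd14 did not pass (0.18, adjusted p = 0.0737), but did under 4 alternatives. Of 11 adipocyte markers 5 were tested, 2 rose and 1 fell (1 and 1 on log2 FPKM or without replicate 3 of the 48 h monolayers), with a sum of 53.2 to 59.8 FPKM at 48 h and 94.3 to 143 FPKM at 96 h. Fabp4, a fatty acid carrier also found in endothelium, rose 1.92-fold, Lipe fell 1.44-fold, Pparg did not pass (-0.45, adjusted p = 0.126), but did without replicate 2 of either time, and Cfd and Lep held no count.

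Over the same 48 h, the change in spheroids differed from that in monolayers for 7433 of 13951 genes by the interaction test, 53.3% of all, with 26.4% higher and 26.9% lower in monolayers. With total-count scaling the split was 5078 higher and 2643 lower, and on log2 FPKM 4904 and 2712. The formats differ in matrix as well as in shape, and their parts cannot be told apart. A group of 972 genes fell in monolayers, rose in spheroids and passed the interaction test, and 933 did the reverse. In spheroids 19.3% of all genes rose and 20.5% fell. Of the mitotic spindle list 29 rose and 0 fell in spheroids, where the median log2 change was 0.29, and the change of 44 members was lower in monolayers. Ccnb1 changed by 0.25 (adjusted p = 0.00763) in spheroids, and the difference of changes was -4.63 ± 0.138 (SE, adjusted p = 3.29e-14). Bub1b changed by 0.50 (adjusted p = 0.000414) there, with a difference of -3.01 ± 0.177 (SE, adjusted p = 1.23e-10). Depdc1a, a transcriptional corepressor found in mitotic cells, had a difference of -5.18 ± 0.292 (SE, adjusted p = 6.82e-11). Slc7a3, an arginine transporter, fell in monolayers from 28.7, 30.9 and 32.7 CPM to 9.52, 10.3 and 9.97 CPM and rose in spheroids, with a difference of -5.14 ± 0.207 (SE, adjusted p = 7.69e-13). Cholesterol genes divided likewise, as 13 rose and 1 fell in spheroids and 22 members had a lower change in monolayers by the interaction test.

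The reverse held for other lists. Of the Nrf2 list none rose and 20 fell in spheroids, and 19 members had a higher change in monolayers. Gsta1, another glutathione transferase named after its values were seen, had a difference of 6.88 that rests on 2 to 8 counts in each monolayer library. Over all genes with a mean of at least 3 on the log2 CPM scale in the 12 libraries, Gsta4 had the largest difference, 5.52 ± 0.188 (SE, adjusted p = 1.09e-13), followed by Abcc4, a pump for cyclic nucleotides and prostaglandins, at 5.39 ± 0.157 (SE, adjusted p = 2.8e-14). Gsta4 held 11, 14 and 12 counts in the 48 h monolayers. Its SE is smaller than the counting error there alone, so it overstates the precision. Pdk4 and Angptl4 fell in spheroids by 3.49 and 2.89 on the log2 scale, and their differences were 4.86 and 5.00. Of the p53 list 4 rose and 13 fell in spheroids, and 19 members had a higher change in monolayers. Fn1 fell in spheroids, with a difference of 1.99 ± 0.188 (SE, adjusted p = 7.32e-08). Collagen chains had medians of -1.64 in monolayers and -1.69 in spheroids, and by the interaction test 7 changes were higher and 9 lower in monolayers. Of interferon genes 27 rose and none fell in spheroids, and 17 had a lower change in monolayers. Of ribosomal protein genes 11 rose and 2 fell in spheroids, and 65 had a lower change in monolayers.

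**Figure D5:**
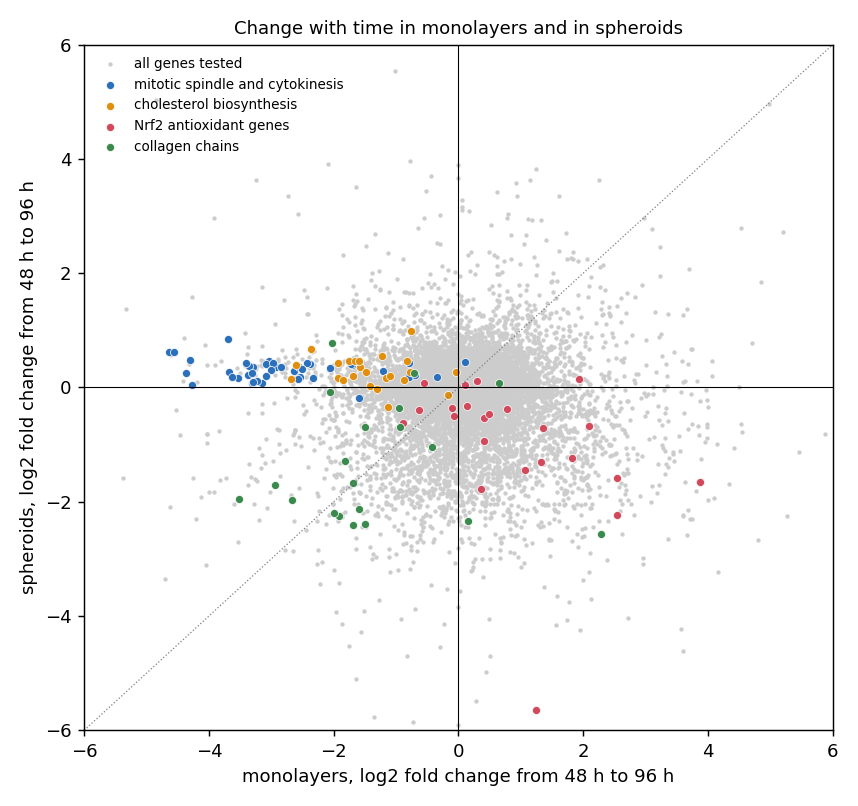
Log2 fold change from 48 h to 96 h in monolayers (horizontal) and in spheroids (vertical) for all genes tested, with 4 lists in colour; the dotted line marks equal change and 14 genes lie outside the axes. Mitotic spindle and cholesterol genes lie to the left near or above zero on the vertical axis, Nrf2 genes mostly to the lower right and collagen genes mostly to the lower left.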

How the data were processed

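RNA of 12 cultures, 3 in each of 4 groups, was extracted with RNA STAT-60 and sequenced after Illumina TruSeq mRNA preparation, per the labels' protocols. Per the submitters' processing notes, bcl2fastq 2.15.0, Bowtie 1.0.1, RSEM 1.2.30 and the mouse build mm9 were used, and for their options and the strand setting no label gives a value. Per gene, the authors deposited RSEM estimated counts (expected counts) rounded to whole numbers, and log2 of FPKM plus 1, and paired gene identifiers with symbols. Estimated counts assign reads shared between similar genes by a model, so values of paralogues and of overlapping genes are less certain.

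From 28427 rows, 13951 passed edgeR's filterByExpr (10 and 15 counts) over all 12 libraries. edgeR 4.0.16 in R 4.3.3 was fitted to the 4 groups together with TMM scaling, a quasi-likelihood test and Benjamini-Hochberg adjustment over all genes tested, at 0.05. The comparison of 96 h with 48 h monolayers was the main one, and the difference from the change in spheroids was tested as an interaction. All 12 libraries shared one estimate of spread. The tests were tested on simulated data with known changes. A floor of 3 counts over a group, which is 0.240 to 0.375 CPM in a single monolayer library, was used for genes at 0, and covers counting error only.

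The alternatives were scaling by total counts, by upper quartiles or by size factors of the DESeq2 type, no filter and a stricter filter (1 CPM in 3 libraries), DESeq2 1.42.0, limma 3.58.1 on the log2 FPKM values, a replicate block, the monolayers alone, and each library left out. The 49 gene lists held 1364 symbols, of which 1361 had a row. The named genes are anchors of cell division and culture state, for each list the 2 largest rises and 2 largest falls among changed genes with a mean of at least 3 on the log2 CPM scale, the 15 largest rises and falls over all such genes whose libraries did not overlap, the 8 largest differences from spheroids in each direction, and the 3 most abundant markers of each other cell type. Some genes that this rule picks are not reported here. The members and lists were chosen with earlier results of these data known. Promoter sequences are from RefSeq on GRCm38.p6, matched by symbol, and motifs were searched in the 250 bases before the start.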

Additional observations from a re-analysis of the deposited data

Results flagged for a closer look

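The change with time differed between monolayers and spheroids, by the edgeR interaction test, for 7433 genes, of which 3683 had a higher and 3750 a lower change in monolayers. Of the 227 tested genes named by rule, 184 differed in this way. Among genes with a mean of at least 3 on the log2 CPM scale over the 12 libraries, those with the lowest monolayer change relative to spheroids were genes of mitosis and 1 transporter. On the log2 scale the difference was -5.25 for Ccnb2, -5.18 for Depdc1a, -5.18 for Nusap1 and -5.14 for Slc7a3. It was -4.78 for Kif2c, -4.73 for Aspm, -4.63 for Ccnb1 and -4.41 for Cenpa.

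At that level of abundance, the genes with the highest relative change in monolayers were of other kinds. The difference was 5.52 for the glutathione transferase Gsta4, 5.39 for the efflux pump Abcc4, 5.09 for the hormone gene Cck and 5.00 for Angptl4. It was 4.86 for Pdk4, 4.76 for the cystine importer Slc7a11, 4.75 for Thbd and 4.74 for the peptide receptor Calcrl. No rule for single outlying values was applied to groups of 3 libraries, and leaving out each library is described with the processing.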

How the results depend on the processing

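The number of genes changed in monolayers stayed within 1.5 times of 8556 under all 21 alternatives, and the number whose change differed from spheroids within 1.5 times of 7433 under the 20 that allow it, all but the fit to monolayers alone. With single libraries left out these counts ran from 7610 to 8644 and from 6834 to 7724. DESeq2 called 7951 genes in monolayers, and the fit to monolayers alone 7816. No pairing by replicate number was visible, as the deviations of same-numbered monolayers correlated at 0.021, -0.058 and -0.044. With so few libraries these values cannot show whether replicates shared an animal or a preparation. A replicate block gave 8537 and 7417 genes. Of 217 named genes that changed, 209 kept their call under all 21 alternatives. Of the 10 that did not pass, 7 passed under at least 1 alternative: Ccnd1, Cdkn1a, Il6, Isg15, Cd14, Emcn and Pparg. The called genes that lost their call were Atr, Bhlhe41, Fn1, Limk1, Ndufb9, Rad50, Stat5b and Vegfa. Vegfa turned from a fall to a log2 change of 0.0097 on log2 FPKM, a setting in which the median of all genes lay 0.12 higher in these libraries. Depth limits genes near 1 CPM, such as Csn2 and Ccnb2 at 96 h.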
